A study of Sus scrofa domesticus and Sus scrofa with 18 samples.

Results

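The most abundant protein-coding transcripts of the developing pig spleen were chosen by their mean level, as all genes with a mean of at least 10 for log2(FPKM+1) over 18 libraries. This rule kept 45 of 12913 genes, or 0.348% of the genes in the protein-coding table. FPKM is the number of fragments scaled to the length of the transcript and to the mapped fragments of the library, so the share of FPKM that a gene takes is not its share of reads. The level over all libraries chose the genes, and the levels and shares given here are therefore descriptions, whereas differences between groups were not used in the choice. A gene very high in a single group could pass the limit through that group. This held for SCARNA12, which would be below 10 without A180d or without WB, while each of the other 44 genes kept a mean of at least 10 without any 1 group. In every library 15 of the 45 genes reached 10.

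Strand-specific libraries of spleen RNA came from Rongchang pigs, a domestic breed, at 5 stages: 55 days before birth (E55d), just after birth (B0d), after 30 days of weaning (W30d), 180 days of age (A180d) and 2 years of age (A2Y). A sixth group held Wild Boars (WB) of 2 years. Each of the 6 groups had 3 libraries. They came from separate female animals, so the p-values measure the spread between animals. The E55d columns are numbered 1, 5 and 6, which does not follow the numbering of the sample labels, and they are called E55d s1, s5 and s6.

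The spleen filters blood, recycles the iron of old red cells in red pulp macrophages and houses B and T cells in its white pulp. In most tissues the highest transcript levels per length belong to proteins that each cell needs in quantity, such as ribosomal proteins, the subunits of the respiratory chain encoded in mitochondrial DNA, and proteins of the cytoskeleton. Small nucleolar and Cajal body RNAs guide chemical modification of ribosomal and spliceosomal RNA, and because they are short a few fragments give them a high FPKM.

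A symbol could be matched to 14 of the 45 genes (31.1%), against 63.6% of all genes in the table. These were 6 ribosomal protein genes (RPS12, RPS28, RPS3, RPS18, RPL38 and RPL11), 3 mitochondrially encoded genes (COX1, COX2 and ATP8), FTL, TMSB10 and 3 small RNAs (SNORA74, SNORD17 and SCARNA12). The table is called protein-coding, but it held 4 genes with a symbol of a small nucleolar or Cajal body RNA, 3 of them above the limit. The other 31 abundant genes are given by identifier only. At the limit itself, RPL11 (10.09), a protein of the large ribosomal subunit, was the last gene inside, and ENSSSCG00000022049 (9.995) was the first outside. ENSSSCG00000022049 ranged from 7.79 in A2Y-3 to 12.71 in W30d-1, whereas RPL11 ranged from 9.35 to 10.79. HBB, a beta-globin gene below the limit with a mean of 9.86, was listed at 0 in E55d s5, W30d-1 and W30d-3. In the other libraries HBB lay between 7.38 and 13.55, and their mean was 11.83.

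As for the tissue, TLX1, a transcription factor needed to form the spleen, was above 0 in every library (2.21 to 4.28). The T cell gene CD3D was at 0.56 at E55d and at 6.64 at A180d, and the plasma cell gene MZB1 was at 1.43 and 8.32. Bulk RNA cannot tell fewer cells of a type from less RNA per cell. Exact zeros stood at 488 entries of 315 genes of the table, in at most 3 libraries of a gene, and among the abundant genes they occurred in the 2 highest only. An exact 0 in such a table can be a failed estimate.

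The 45 genes took between 64.6 and 86.7% of the protein-coding FPKM of a library, with a median of 75.1% over the 18 libraries. The group means were 73.1 ± 1.0% (E55d), 75.3 ± 4.2% (B0d), 74.9 ± 3.3% (W30d), 75.3 ± 11.1% (A180d), 76.6 ± 3.5% (A2Y) and 80.6 ± 2.5% (WB), with the SD over 3 libraries. By library, it was 72.9, 72.3 and 74.3% at E55d, 71.0, 79.3 and 75.8% at B0d, and 73.3, 78.6 and 72.6% at W30d. It was 64.6, 74.5 and 86.7% at A180d, 79.5, 77.7 and 72.7% at A2Y, and 83.3, 80.2 and 78.3% in WB. The A180d libraries held both the lowest and the highest share of the series, and consecutive groups overlapped, while all WB libraries lay above all E55d libraries. The 2 highest genes were both listed at 0 in A180d-1, and the highest also in A180d-2. The lowest share and the SD of 11.1% at A180d thus rest on zeros. The number of genes needed to reach 50% of the FPKM was 2 in most libraries, 1 in A2Y-1, 4 in A180d-2 and 10 in A180d-1. The values of 4 and 10 rest on the same zeros.

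**Figure D1:**
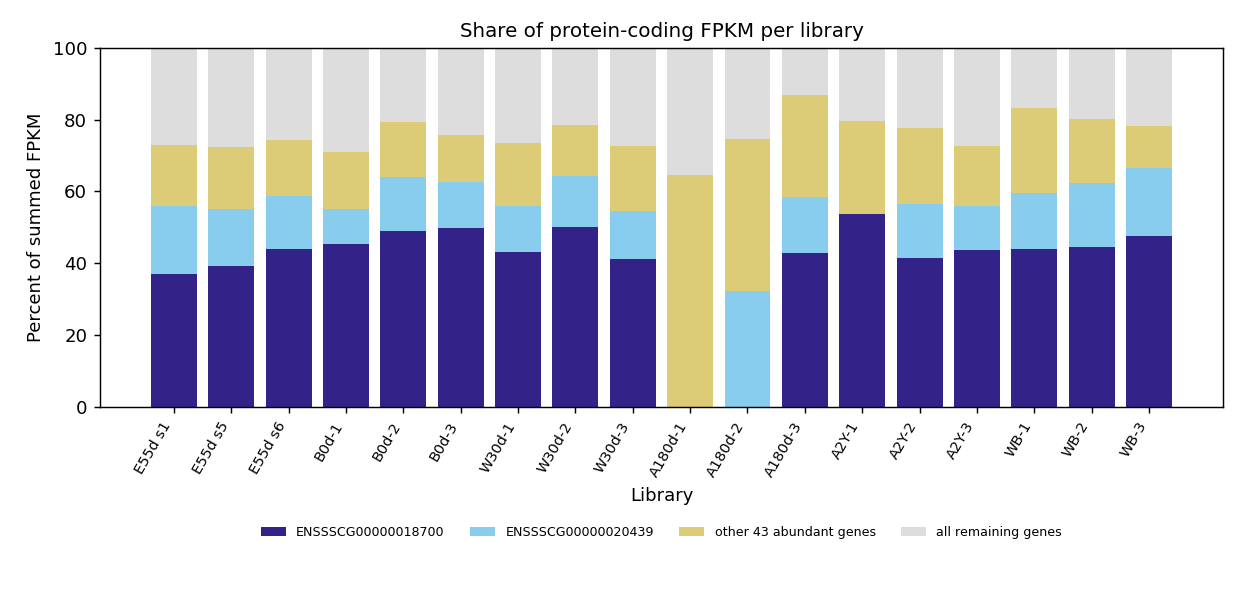
Share of the summed protein-coding FPKM (percent, y axis) in each of the 18 libraries (x axis), split into ENSSSCG00000018700, ENSSSCG00000020439, the other 43 abundant genes and all remaining genes. The bars of A180d-1, A180d-2 and A2Y-1 lack 1 or both of the first 2 genes, which were listed at 0 there, and the whole abundant share ranges from 64.6 to 86.7%.

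ENSSSCG00000018700 was the highest gene of the table in 16 of 18 libraries. It stood at 17.98, 17.79 and 18.18 at E55d, at 18.13, 18.95 and 18.61 at B0d, and at 18.85, 18.95 and 18.60 at W30d. It was listed at 0 in A180d-1 and A180d-2 and was at 19.499 in A180d-3. At A2Y it stood at 19.33, 18.45 and 18.49, and in WB at 19.19, 19.04 and 19.30. Where it was above 0, it stayed between 17.79 and 19.499. The second gene, ENSSSCG00000020439, was listed at 0 in A180d-1 and A2Y-1 and lay between 15.92 (B0d-1) and 18.20 (A180d-2) in the other 16 libraries.

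ENSSSCG00000018700 alone took 36.9, 39.3 and 43.9% of the FPKM at E55d and 45.3, 49.0 and 49.8% at B0d. This difference of 8.06 percentage points had no overlap between the groups, and a two-sided exact permutation test gave p = 0.1, the smallest p that 3 libraries against 3 can give (0.333 after Benjamini-Hochberg adjustment over the 5 consecutive comparisons). From B0d to W30d the share differed by -3.34 points (exact p = 0.4, adjusted 0.5). The differences of -30.5 points at A180d against W30d and of 31.9 points at A2Y against A180d rested on the 2 A180d libraries listed at 0 (exact p = 0.2 for both, adjusted 0.333). From A2Y to WB the difference was -0.791 points (exact p = 1). In limma ENSSSCG00000018700 passed the threshold for A180d against W30d and for A2Y against A180d, and these calls rest on the same zeros. They were lost without A180d-1 (adjusted p = 0.0666 and 0.101) or without A180d-2 (0.0658 and 0.103), and the second also without A2Y-1 (0.0511) or A2Y-3 (0.0745). Both were also lost with only the 2 groups compared in the model (0.104 and 0.087). No fold is given for either gene at these steps.

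With ENSSSCG00000018700 and ENSSSCG00000020439 set aside, the other 43 genes took 11.9 to 64.6% of all FPKM, and 35.3 to 68.1% of what the first 2 left. Of this remainder they took 38.2 ± 0.57% (E55d), 37.6 ± 4.0% (B0d), 39.8 ± 0.21% (W30d), 65.0 ± 2.9% (A180d), 47.5 ± 8.85% (A2Y) and 47.2 ± 11.6% (WB), with the SD over 3 libraries. The 3 A180d libraries lay between 62.4 and 68.1%, above every library of the other 5 groups. This measure does not depend on the zeros of the first 2 genes.

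The other genes of the highest 10 were ENSSSCG00000025419, ENSSSCG00000020505, ENSSSCG00000027405, ENSSSCG00000023953, ENSSSCG00000028618, ENSSSCG00000029412, ENSSSCG00000020462 and ENSSSCG00000028281, none with a symbol. Of these 8, 7 had their highest mean at A180d, and ENSSSCG00000029412 had it at W30d. ENSSSCG00000025419 was at 11.52, 11.09 and 11.40 at E55d, at 12.26, 13.24 and 12.92 at B0d, and at 13.05, 12.99 and 12.50 at W30d. It was at 16.64, 16.67 and 17.41 at A180d, at 15.49, 15.29 and 14.36 at A2Y, and at 16.49, 15.08 and 13.50 in WB. It took 0.379 to 0.967% of the FPKM at E55d, B0d and W30d and 10.1 to 16.0% at A180d.

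Differences between consecutive groups were tested with limma on the log2 values over all 12913 genes, with a threshold of 0.05 for the adjusted p, and each call was recomputed under up to 16 alternatives. These were 4 other scalings of the libraries, another pseudocount, a filter on low values, another variance model, only the 2 groups compared, a block for the replicate number with its base, and the omission of single libraries. The scalings set equal the total FPKM of the other 12868 genes, of all genes but ENSSSCG00000018700 or of all genes. Another divided by the median ratio of genes to their geometric mean. The zeros of the 2 highest genes change the total of all genes, and those of ENSSSCG00000020439 also the total without ENSSSCG00000018700. Under each scaling all 18 libraries shared 1 estimate of the spread per gene, so these zeros also enter tests between groups without a zero.

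From W30d to A180d, ENSSSCG00000025419 rose by 4.06 ± 0.57 on the log2 scale (SE, limma, adjusted p = 0.000334), with no overlap between the groups, and this call held in all 16 alternatives. Its fall from A180d to A2Y (-1.86 ± 0.57, adjusted p = 0.0404) was lost in 11 of 16 alternatives, among them leaving out any A180d library, A2Y-2 or A2Y-3 (adjusted p from 0.058 to 0.174). ENSSSCG00000020505 stood between 12.63 and 13.41 at W30d and between 15.71 and 15.75 at A180d, a rise of 2.61 ± 0.41 (adjusted p = 0.000612) that held in all 16 alternatives. ENSSSCG00000027405 rose by 2.09 ± 0.61 (adjusted p = 0.019), and the call was lost without W30d-1, W30d-3, A180d-1 or A180d-2 (adjusted p from 0.0502 to 0.0687). ENSSSCG00000023953 rose by 1.37 ± 0.48 (adjusted p = 0.0425), and 9 of 16 alternatives ended the call, among them leaving out W30d-1, W30d-3 or any A180d library (0.0809 to 0.134).

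ENSSSCG00000020462 rose at more than 1 step. Its levels were 10.25, 10.70 and 10.64 at E55d, 12.64, 13.05 and 12.55 at B0d, and 12.50, 11.97 and 12.80 at W30d. They were 14.24, 14.23 and 13.86 at A180d, 12.92, 12.73 and 12.53 at A2Y, and 14.22, 13.97 and 13.001 in WB. The rises from E55d to B0d (2.22 ± 0.34, adjusted p = 0.000118), the largest among the abundant genes that passed the threshold at that step, and from W30d to A180d (1.69 ± 0.34, adjusted p = 0.00247) held in every alternative. The fall from A180d to A2Y (-1.39 ± 0.34, adjusted p = 0.0143) was lost without A180d-1, A180d-2 or A2Y-3 (0.0513 to 0.066) and in 4 other alternatives, and the rise from A2Y to WB (1.005 ± 0.34, adjusted p = 0.0447) was lost in 13 of 16, among them leaving out any A2Y library, WB-1 or WB-2 (0.0628 to 0.166).

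ENSSSCG00000028618 was at 11.88, 12.67 and 11.85 at E55d and at 13.42, 13.92 and 13.21 at B0d, a rise of 1.38 ± 0.50 (limma, adjusted p = 0.0425) that was lost in 9 of 14 alternatives, among them leaving out E55d s1, E55d s6 or any B0d library (0.0557 to 0.127). ENSSSCG00000029412 was at 12.88, 13.10 and 12.33 at B0d and at 14.29, 13.28 and 14.41 at W30d. Its rise of 1.22 ± 0.34 (adjusted p = 0.0249) was the largest among the abundant genes that passed the threshold at that step. It was lost in 7 of 16 alternatives, among them leaving out B0d-3, W30d-1 or W30d-3 (0.0886 to 0.111). Its fall from W30d to A180d (-1.003 ± 0.34, adjusted p = 0.0385) was lost in 8 of 16, among them leaving out W30d-1, W30d-3, A180d-1 or A180d-2 (0.104 to 0.165). ENSSSCG00000028281 passed the threshold at no step, with group means from 11.63 to 13.45, although its libraries did not overlap at B0d against E55d (0.70 ± 0.55) or at A180d against W30d (0.57 ± 0.55).

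FTL encodes the light chain of ferritin, which stores iron inside cells. Its levels were 9.99, 10.07 and 9.93 at E55d and 10.08, 10.34 and 10.26 at B0d. They were 11.50, 11.11 and 11.42 at W30d and 11.78, 11.48 and 11.42 at A180d. They reached 12.01, 11.92 and 12.09 in A2Y animals and 12.79, 13.18 and 13.12 in WB. The group means stood in the order of age, and every WB library was above every domestic library. The rise from B0d to W30d was 1.11 ± 0.21 (limma, adjusted p = 0.00253) and that from A2Y to WB was 1.03 ± 0.21 (adjusted p = 0.00374). Both were lost with only the 2 groups compared in the model (adjusted p = 0.059 and 0.0781) and with the total of all genes, or of all but ENSSSCG00000018700, set equal between libraries (0.107 to 0.404). Of the markers of red pulp macrophages, 2 of 4 were matched, SPIC and VCAM1, and neither was at 0. Their summed level ranged from 6.74 to 6.94 (E55d), 8.53 to 8.76 (B0d), 8.90 to 9.26 (W30d), 9.05 to 9.31 (A180d), 9.48 to 10.13 (A2Y) and 10.37 to 10.75 (WB). From A2Y to WB, VCAM1 rose by 0.83 ± 0.21 (limma, adjusted p = 0.012), while SPIC differed by 0.14 ± 0.25 and did not pass (0.727). From B0d to W30d neither passed, with 0.06 ± 0.25 for SPIC (adjusted p = 0.901) and 0.56 ± 0.21 for VCAM1 (0.0806). From E55d to B0d both rose, SPIC by 3.47 ± 0.25 (adjusted p = 7.81e-08) and VCAM1 by 1.41 ± 0.21 (9.86e-05), while FTL did not pass (0.23 ± 0.21, 0.41). From A180d to A2Y SPIC rose (1.08 ± 0.25, 0.0117), while VCAM1 (0.56 ± 0.21, 0.0835) and FTL (0.44 ± 0.21, 0.173) did not pass. The part of these markers in the level of FTL was not tested.

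TMSB10 encodes thymosin beta 10, which binds actin monomers. It was at 8.94, 8.88 and 9.03 at E55d, at 10.08, 10.16 and 10.17 at B0d, and at 11.11, 11.40 and 11.45 at W30d, with no overlap between the 3 stages. The rises were 1.19 ± 0.20 at both steps (limma, adjusted p = 0.000293 and 0.00105), and in the later groups it lay between 10.75 and 11.43. These calls were lost with the total of all genes set equal (adjusted p = 0.121 and 0.21), and the second also with the total of all but the highest gene set equal (0.0512). CD3D rose at the same steps, from 0.56 to 3.76 and 5.54, and its part in the level of TMSB10 was not tested. Of the 5 matched cytoskeleton genes, TMSB10 was the only one above the limit. ACTB, beta-actin, was below it with a mean of 9.87 and had group means of 10.69 at A180d, 10.49 in WB and 9.29 to 9.62 in the other groups. It rose from W30d to A180d (1.18 ± 0.28, adjusted p = 0.00665).

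The 6 ribosomal protein genes encode structural proteins of the small (RPS) and large (RPL) ribosomal subunit. RPS12 ranged from 10.15 to 11.60 over the 18 libraries, RPS3 from 9.40 to 10.76, RPS18 from 9.46 to 10.70, and RPL11 from 9.35 to 10.79. None of these 4 passed the threshold at a consecutive step in limma. RPS28, of the small subunit, was at 9.89, 10.30 and 9.89 at B0d and at 11.02, 10.95 and 10.60 at W30d, a rise of 0.83 ± 0.23 (adjusted p = 0.0253) that 9 of 16 alternatives ended, among them leaving out B0d-1, B0d-3, W30d-1 or W30d-2 (0.0501 to 0.0861). RPL38, of the large subunit, was at 8.97, 8.98 and 9.12 at E55d and at 9.52, 10.25 and 9.77 at B0d. It rose by 0.82 ± 0.24 (adjusted p = 0.015), and the call was lost without B0d-2 (0.0736) and in 3 of the other scalings.

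The 24 genes of the table with a ribosomal protein symbol, a list made after their values were seen, were counted at each step. From E55d to B0d 6 rose and 0 fell, with a median change of 0.19 against 0.13 over all genes, of which 22.3% rose. From B0d to W30d 8 rose and 0 fell (0.61 against 0.03), where 8.01% of all genes rose. From W30d to A180d 3 rose and 0 fell (0.10 against -0.00), where 12.8% of all genes rose. From A180d to A2Y 0 rose and 4 fell (-0.21 against 0.07), where 3.26% of all genes fell, and from A2Y to WB 0 rose and 1 fell (-0.03 against 0.01), where 9.57% fell. The counts of 6 and 3 were close to the background. The directions at A180d turned with the scaling: with the total of all genes but ENSSSCG00000018700 set equal, 0 rose and 6 fell between W30d and A180d, and 6 rose and 0 fell between A180d and A2Y. Of the called genes outside the abundant 45, 3.25 and 99.8% rose there under this scaling. From B0d to W30d, 12 rose under the median ratio and 0 under each of the other 3 scalings. Of the called genes outside the abundant 45, 50.3% rose there under the median ratio. The share was 12.4, 10.7 and 18.1% with the total of these genes, of all but ENSSSCG00000018700 or of all genes set equal. Ribosomal protein genes have many near-identical copies in mammalian genomes, so reads may be split between them.

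The 3 mitochondrially encoded genes moved in another order. ATP8, a subunit of ATP synthase, was at 12.58, 11.997 and 12.72 at E55d, at 10.58, 10.60 and 11.08 at B0d, and at 10.50, 10.27 and 10.47 at W30d. It was at 9.15, 9.31 and 9.83 at A180d, at 11.08, 11.58 and 11.39 at A2Y, and at 9.75, 9.90 and 10.21 in WB. The E55d libraries were the highest of the series, and the A2Y libraries stood above those of A180d and WB with no overlap. It fell by 1.68 on the log2 scale from E55d to B0d (SE 0.26, limma, adjusted p = 0.000141), rose by 1.92 ± 0.26 from A180d to A2Y (adjusted p = 0.000468) and was lower by 1.40 in WB than at A2Y (-1.40 ± 0.26, adjusted p = 0.00194), the largest fall among those that passed the threshold there. These 3 calls held in every alternative. The fall from W30d to A180d (-0.98 ± 0.26, adjusted p = 0.0115) was lost without A180d-1 (0.0601) and with the total of all genes set equal (0.15).

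COX1 and COX2 encode the core subunits of cytochrome c oxidase. COX1 was at 11.62, 11.40 and 11.81 at W30d, at 10.56, 10.76 and 10.79 at A180d, and at 11.40, 11.27 and 12.25 at A2Y. Its fall from W30d to A180d (-0.91 ± 0.26, limma, adjusted p = 0.0169) was lost in 4 of 16 alternatives, among them leaving out W30d-1, W30d-3 or A180d-1 (0.0501 to 0.0779). Its rise from A180d to A2Y (0.94 ± 0.26, adjusted p = 0.0252) was lost in 8 of 16, among them leaving out any A180d library or A2Y-3 (0.0554 to 0.137). COX2 was at 10.29, 10.19 and 10.66 at W30d, at 9.75, 9.57 and 9.98 at A180d, at 10.67, 10.72 and 11.07 at A2Y, and at 10.05, 10.13 and 10.26 in WB. Its rise from A180d to A2Y was 1.05 ± 0.20 (adjusted p = 0.00374), which was lost only with the total of all genes set equal (0.239). Its fall from W30d to A180d (-0.61 ± 0.20, adjusted p = 0.0313) was lost in 9 of 16 alternatives. Among these were leaving out W30d-1, W30d-3, A180d-1 or A180d-2 (0.0598 to 0.155) and the total of the other 12868 genes set equal (0.0872). Its fall from A2Y to WB (-0.68 ± 0.20, adjusted p = 0.0241) was lost in 5 of 16, among them leaving out A2Y-3, WB-1 or WB-2 (0.0594 to 0.0934).

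All 13 protein genes of mitochondrial DNA were in the table, and the 10 below the limit are given as the rest of this list. From E55d to B0d 0 of 13 rose and 8 fell, with a median change of -0.87 against 0.13 over all genes, of which 12.6% fell. From B0d to W30d 0 rose and 1 fell (-0.31 against 0.03), where 7.61% of all genes fell, and between W30d and A180d 0 rose and 9 fell (-0.91 against -0.00), where 15.4% fell. From A180d to A2Y 11 rose and 0 fell (1.14 against 0.07), where 10.8% of all genes rose, and from A2Y to WB 0 rose and 7 fell (-0.69 against 0.01), where 9.57% fell. No call of the list turned its direction under the 4 other scalings, but with the total of all genes set equal 0 fell between W30d and A180d, and 2 rose between A180d and A2Y. Of the 12868 genes outside the abundant 45, 790 and 37 passed at these steps under that scaling. Over the 6 group means, 9 of the 13 were highest at E55d (21.5% of all genes) and 11 were lowest at A180d (18.3% of all genes). ND5, of complex I, fell by 1.66 on the log2 scale from E55d to B0d (SE 0.21, adjusted p = 1.85e-05), while COX1 did not pass the threshold there (-0.06 ± 0.26, adjusted p = 0.888). ATP8 and ATP6, and ND4L and ND4, overlap in mitochondrial DNA, and how fragments in the shared bases were counted is not given in the sources used here.

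**Figure D2:**
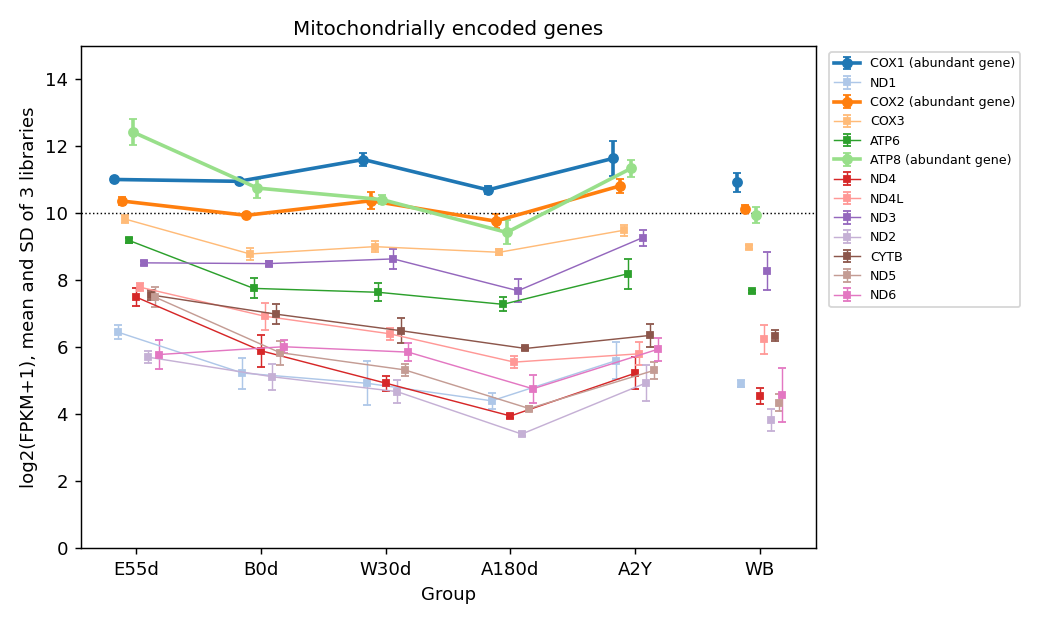
Mean and SD (n = 3 libraries) of log2(FPKM+1) for the 13 mitochondrially encoded genes (y axis) in the 6 groups (x axis), with lines joining the 5 domestic stages and a dotted line at the limit of 10. COX1, COX2 and ATP8, drawn thick, lie above the others, and 11 of the 13 have their lowest mean at A180d.

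The 3 small RNAs above the limit were highest at A180d among the domestic stages. SNORA74 was at 12.13, 11.43 and 10.001 at W30d, at 14.06, 14.38 and 14.18 at A180d, and at 12.87, 10.29 and 12.24 at A2Y. It rose by 3.02 ± 0.69 from W30d to A180d (limma, adjusted p = 0.00504), which held in every alternative. Its fall from A180d to A2Y (-2.41 ± 0.69, adjusted p = 0.03) was lost in 8 of 16, among them leaving out any A180d library, A2Y-2 or A2Y-3 (0.0687 to 0.114). SNORD17 was at 10.04, 10.37 and 10.34 at W30d and at 12.36, 12.07 and 12.58 at A180d, a rise of 2.09 ± 0.42 (adjusted p = 0.00251). The rise of SNORD17 held in every alternative. SCARNA12 was at 9.87, 9.59 and 9.28 at W30d and at 11.42, 11.04 and 11.77 at A180d. Its mean over the other 5 groups was 9.97 without A180d, so it was above the limit only with that group. Its difference of 1.83 on the log2 scale is therefore a description, and no p-value is given for it. SNORA53, the fourth such gene of the table and below the limit, went the other way at this step, from a mean of 11.13 to 9.36 (-1.76 ± 0.48, adjusted p = 0.0129). The number of fragments behind these values was not recovered. MZB1 also rose from W30d to A180d (3.53 ± 0.33, adjusted p = 1.91e-05), and the part of plasma cells in these levels was not tested.

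**Figure D3:**
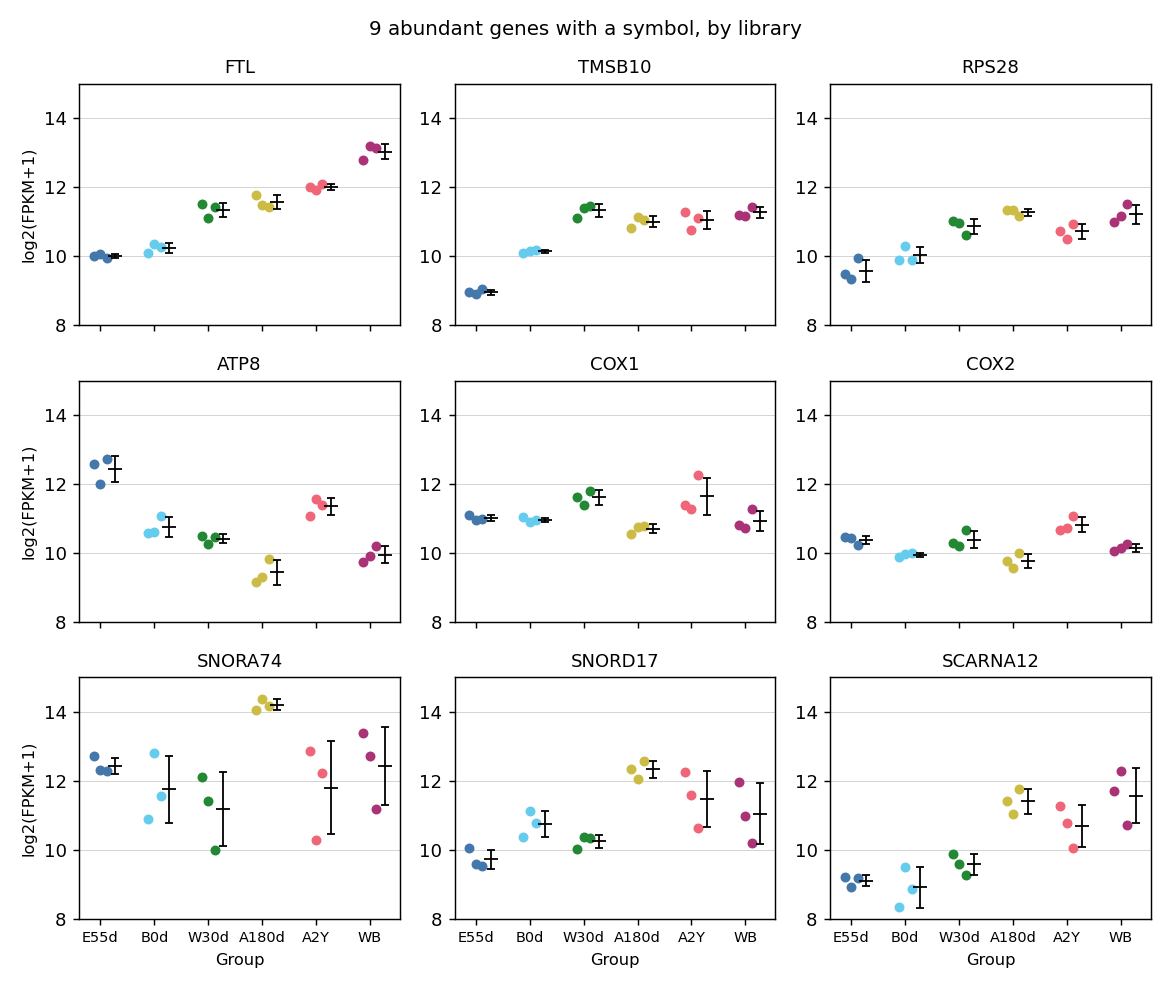
Levels of 9 abundant genes with a symbol, as log2(FPKM+1) (y axes) in each library of the 6 groups (x axes), with the mean and SD of the 3 libraries beside the points. FTL and TMSB10 are lowest at E55d, ATP8 is highest at E55d, and SNORA74, SNORD17 and SCARNA12 have each A180d library above each W30d library.

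Over the 45 genes, 11 passed the threshold from E55d to B0d (8 rose and 3 fell), or 24.4%, where 34.9% of all genes tested did. Without E55d s1, E55d s6 or B0d-2 the count was 6, 7 and 6. From B0d to W30d 12 rose and 0 fell, or 26.7%, where 15.6% of all genes passed, 8.01% rising and 7.61% falling. Without B0d-1, B0d-3, W30d-1 or W30d-3 the count was 4, 3, 3 and 4. It was 0 with the total of all genes, or of all but ENSSSCG00000018700, set equal. Of the other 12868 genes, 924 and 2385 passed under these 2 scalings, and 2005 on the deposited scale. From W30d to A180d 12 rose and 6 fell, or 40.0%, where 28.1% of all genes passed. The rises include SCARNA12, which would be below 10 without A180d. The falls include ENSSSCG00000018700, whose call rests on zeros. Without W30d-3, A180d-1 or A180d-2 the count was 11, 9 and 11. From A180d to A2Y 4 rose and 4 fell, or 17.8% against 14.0%. The rises were those of COX1, COX2, ATP8 and ENSSSCG00000018700, and the call of the last rests on zeros. The count was 3, 3 and 4 without A180d-1, A180d-2 and A180d-3, 13 without A2Y-1 and 2 without A2Y-3. From A2Y to WB 4 rose and 2 fell, or 13.3% against 20.4%, with a count of 3 without A2Y-3, WB-1 or WB-2. From B0d to W30d onward, the counts of the other genes also moved when a library was left out, with the ranges given further below. Whether the abundant genes lost calls more often than the other genes was not tested.

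The shares near the background say nothing particular about the abundant genes, and consecutive comparisons share a group. The median change of the 45 genes was 0.11, 0.57, 0.24 and -0.30 over the 4 developmental steps and 0.00 for WB against A2Y. Over the other 12868 genes it was 0.13, 0.03, -0.00, 0.07 and 0.01. The split of the calls depended on the scaling. With the total of the other genes set equal, 5 rose and 4 fell from E55d to B0d, 4 rose and 1 fell from B0d to W30d, and 3 rose and 8 fell from A2Y to WB. Of the other genes called under this scaling, 47.1, 12.4 and 29.0% rose in the same order. With the total of all but ENSSSCG00000018700 set equal, 10 rose and 11 fell between W30d and A180d, and 14 rose and 2 fell between A180d and A2Y. Of the other genes, 4160 and 5691 passed there, and 3.25 and 99.8% of these rose. This scaling moved most genes in the same direction, so these splits are not particular to the abundant genes. Between E55d and B0d, the libraries of the 2 groups did not overlap for 22 of the 45 genes (17 higher and 5 lower), where 52.7% of all genes did not (33.7% higher and 18.9% lower). Between B0d and W30d this held for 25 genes (29.8% of all genes), between W30d and A180d for 27, of which 21 were higher (45.3%, with 21.1% higher), between A180d and A2Y for 14, of which 4 were higher (39.4%, with 26.1% higher), and between A2Y and WB for 12 (34.8%). The 21 genes higher at A180d than at W30d include SCARNA12, which would be below 10 without A180d. Over the 5 domestic stages, 40 of the 45 differed by the moderated F test, where 74.7% of all genes did. These 40 include ENSSSCG00000018700 with its zeros.

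Among the 43 genes above 0 in every library, 24 (SCARNA12 among them) had their highest domestic mean at A180d and 24 had their lowest at E55d. In 37 the mean at W30d was above that at B0d, and in 37 the mean at A180d was above that at E55d. Of the 12598 genes above 0 in every library, 22.4% were highest at A180d and 41.1% lowest at E55d among these stages, 52.8% were higher at W30d than at B0d, and 55.4% were higher at A180d than at E55d. Among the 43 the widest range of group means, 6.05 on the log2 scale, belonged to ENSSSCG00000028335. It was at 13.28, 8.74 and 10.95 at E55d, at 6.02, 8.60 and 8.60 at B0d, and at 8.51, 8.15 and 9.57 at W30d. It was at 13.84, 13.03 and 14.53 at A180d, at 14.02, 12.55 and 11.39 at A2Y, and at 12.29, 10.31 and 9.26 in WB. Its rise from W30d to A180d, 5.05 ± 1.03 (limma, adjusted p = 0.00265), was the largest among the abundant genes above 0 in every library, over the 5 comparisons, and held in every alternative. Its fall from E55d to B0d (-3.25 ± 1.03, adjusted p = 0.0221) was lost without E55d s1 (0.127), E55d s6 (0.0538) or B0d-1 (0.103) and with only these 2 groups in the model (0.062). The narrowest range, 0.62 on the log2 scale between group means, was that of ENSSSCG00000024825, at 9.65 to 10.64 in the 18 libraries.

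ENSSSCG00000023906 was at 9.49, 9.40 and 8.56 at E55d, at 10.98, 11.83 and 11.11 at B0d, at 11.21, 10.93 and 11.52 at W30d, at 13.49, 13.18 and 14.10 at A180d, and at 12.01, 11.74 and 9.17 at A2Y. Its rise from W30d to A180d (2.37 ± 0.65, limma, adjusted p = 0.0139) held in every alternative. Its fall from A180d to A2Y, -2.62 ± 0.65 (adjusted p = 0.0159) and the largest fall that passed the threshold at that step, was lost without A180d-3 (0.0631) or A2Y-3 (0.0869), and its rise from E55d to B0d (2.16 ± 0.65, adjusted p = 0.0171) was lost without E55d s6 (0.0725) or B0d-2 (0.0615). ENSSSCG00000029605 had the largest rise that passed the threshold from A2Y to WB. It was at 11.36, 10.33 and 10.47 at A2Y and at 13.03, 12.58 and 12.28 in WB (1.91 ± 0.44, adjusted p = 0.00746), and this call was lost only with the total of all genes set equal (0.0601).

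**Figure D4:**
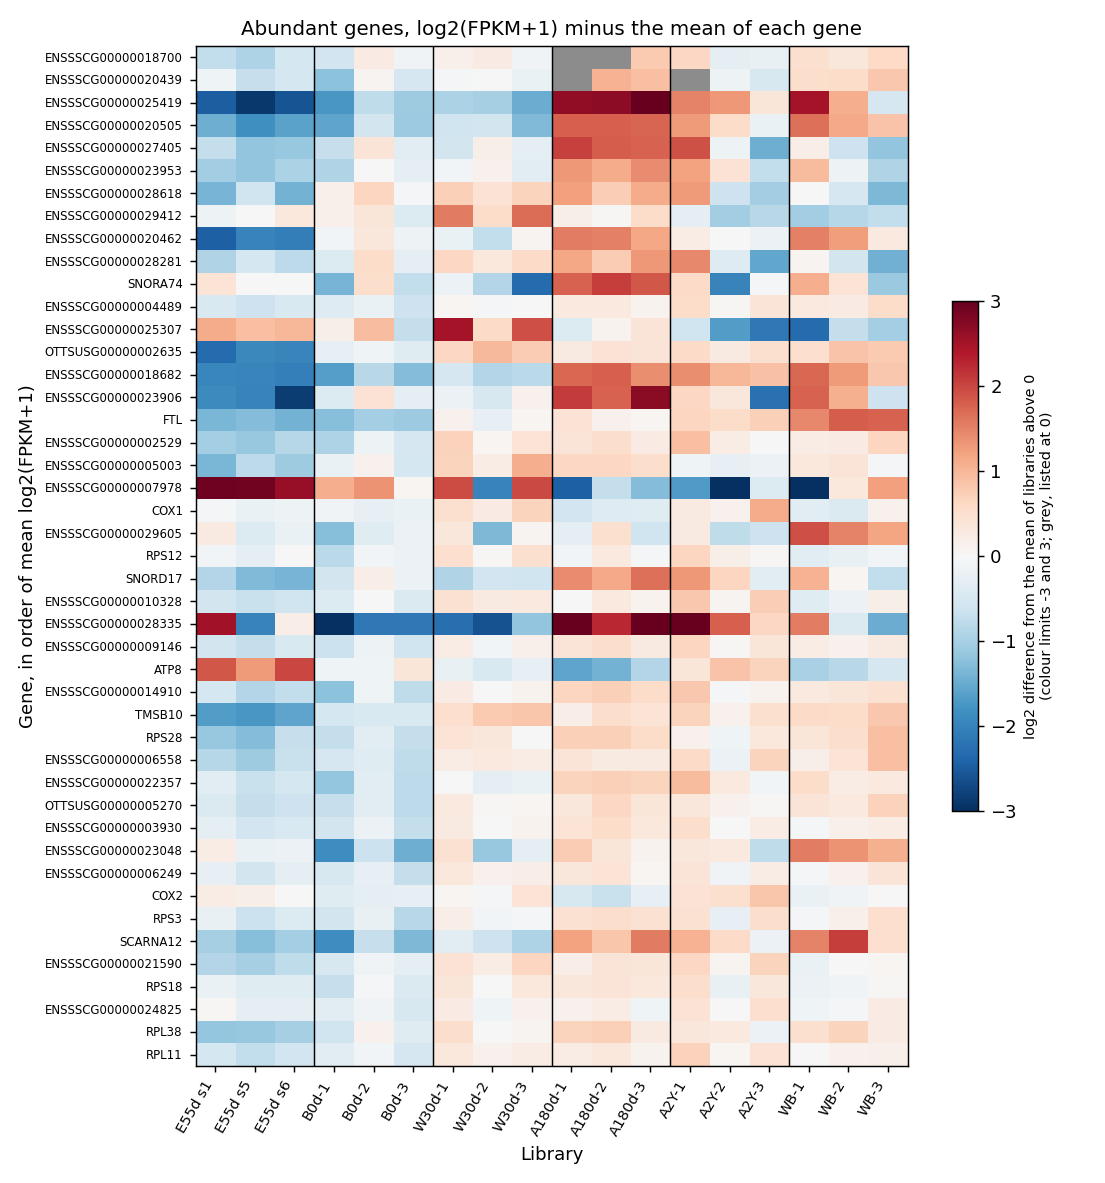
Levels of the 45 abundant genes (y axis, from the highest mean down) in the 18 libraries (x axis), as the log2 difference from the mean of the libraries above 0 of each gene, with colour limits of -3 and 3 and grey for a gene listed at 0. Warm colours gather at A180d in the upper part, where ENSSSCG00000025419 and ENSSSCG00000020462 lie, and ATP8 and ENSSSCG00000007978 are warmest at E55d.

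Single libraries stood apart for a few of these genes. ENSSSCG00000007978, highest at E55d (14.12, 14.08 and 13.81), was at 13.15 and 13.17 in W30d-1 and W30d-3 and at 9.20 in W30d-2, and it was at 6.51 in A2Y-2 against 9.50 and 10.79 in the other A2Y libraries. HBM, a globin gene below the limit, was at 11.67 and 11.35 in W30d-1 and W30d-3 and at 5.39 in W30d-2, and at 2.16 in A2Y-2 against 5.54 and 5.80. ENSSSCG00000007978 passed the threshold at no consecutive step. At A2Y, the median SD of the 43 genes above 0 was 0.41 on the log2 scale against 0.19 for all genes, and at A180d it was 0.16 against 0.14. Over all groups the median SD within a group was 0.29 against 0.23.

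Across the 18 libraries, the levels of the 6 ribosomal protein genes correlated with each other with a median Pearson r of 0.78 over 15 pairs (0.34 to 0.89). The median was 0.58 among the 3 small RNAs (3 pairs) and 0.58 among the 3 mitochondrially encoded genes (3 pairs). Between ribosomal proteins and mitochondrially encoded genes it was 0.02 (18 pairs), between ribosomal proteins and small RNAs 0.50 (18 pairs), and between small RNAs and mitochondrially encoded genes -0.37 (9 pairs). Of the 31 genes without a symbol, 17 had their highest median r with the ribosomal proteins, 10 with the small RNAs and 4 with the mitochondrially encoded genes. These 4 values were low, at 0.47 for ENSSSCG00000018700 and 0.10 for ENSSSCG00000020439, each listed at 0 in 2 libraries, 0.12 for ENSSSCG00000007978 and 0.04 for ENSSSCG00000025307. The highest values over the 31 genes were 0.88 with the ribosomal proteins (ENSSSCG00000003930) and 0.88 with the small RNAs (ENSSSCG00000025419), whereas ENSSSCG00000029412 reached 0.01 with any of them. These are descriptions over libraries that share stages and scaling. The small RNAs include SCARNA12, which would be below the limit without A180d or without WB. A high level in these groups is thus partly built into that list. For deviations from group means, the median r was 0.55 among the ribosomal proteins (0.07 to 0.86), 0.57 among the small RNAs and 0.34 among the mitochondrially encoded genes. Ribosomal proteins had -0.05 with mitochondrially encoded genes and 0.25 with small RNAs, and the latter 2 lists had -0.28. The 31 genes were compared over the 18 libraries only, so stage differences enter their values.

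Whether the abundant genes moved the FPKM of other genes was examined first within groups. The summed protein-coding FPKM ranged from 576686 to 1734525 over the 18 libraries, so the deposited libraries were not set to a common total. The 45 genes varied 3.64-fold in their summed FPKM between the libraries, and the other 12868 genes varied 1.84-fold (159809 to 294300). At A180d ENSSSCG00000018700 was at 0 in 2 libraries and at its highest level of the series in the third. The abundant genes summed to 413207, 697215 and 1504682 there. The other genes summed to 226493, 239064 and 229843 in the same libraries, so a 3.64-fold difference in the former stood beside a 1.06-fold difference in the latter. The first value rests on the zeros of the 2 highest genes, without which the abundant genes varied 1.24-fold at A180d. Within W30d the abundant genes varied 1.15-fold and the other genes 1.36-fold, and within WB 1.16-fold and 1.2975-fold, so there the other genes varied more. Gene by gene, the other genes differed by a median of 0.08 between A180d-1 and A180d-3 and of 0.09 between A180d-2 and A180d-3 on the log2 scale, with 63.4 and 64.2% of them higher in A180d-1 and A180d-2 than in A180d-3. Between A180d-1 and A180d-2 the median difference was -0.01. In groups where ENSSSCG00000018700 was above 0 in all libraries, pairs of libraries differed by medians of up to 0.28 (WB-1 and WB-3).

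**Figure D5:**
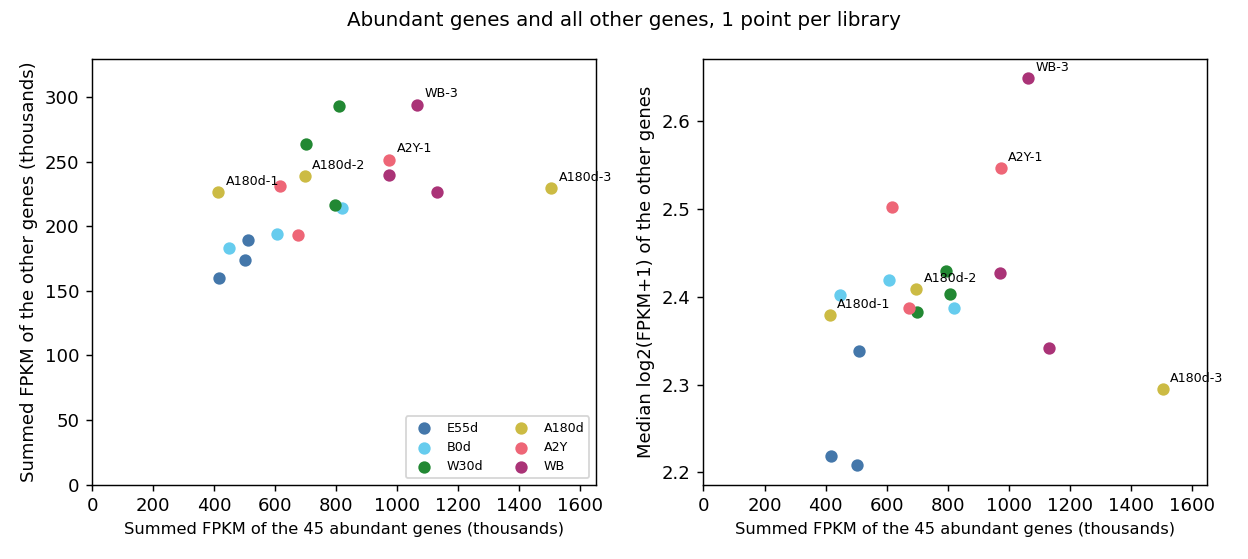
Summed FPKM of the 45 abundant genes (x axes) against the summed FPKM of the other 12868 genes (left) and against their median log2(FPKM+1) (right), with 1 point per library coloured by group. The 3 A180d points spread along the x axis while their summed FPKM of the other genes stays between 226493 and 239064.

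Over all libraries, the deviation of ENSSSCG00000018700 from its group mean was set against the deviation of the median level of the other genes. Pearson's r was -0.26 (exact permutation within groups over 46656 orders, p = 0.304) and Spearman's rho was -0.04 (p = 0.892). The SD of the gene was 11.3 at A180d, through its zeros, and 0.13 to 0.49 in the other groups. Each r of this gene over all 18 libraries therefore rests mostly on which A180d library held the high value. Its p says little about the other groups, so these r cannot decide the relation. Without A180d-1 and A180d-2, the 2 libraries farthest from the median of the gene, r was 0.32 (exact permutation p = 0.223), and without A180d-3 it was also 0.32 (p = 0.223), so the negative sign rested on these libraries. With the summed FPKM of the other genes in place of their median, r was 0.00 (exact permutation p = 0.974), and with the median of the lncRNAs of the same libraries it was -0.15 (p = 0.359). With ENSSSCG00000025419, which was never at 0, in place of the first gene, r was -0.68 (exact permutation p = 0.123). Spearman's rho for these 3 was 0.31 (p = 0.204), -0.46 (p = 0.12) and -0.39 (p = 0.224). Over this family of 4 relations the Benjamini-Hochberg adjusted p was at least 0.479 for r and at least 0.299 for rho.

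The comparisons of the other genes were also made under other scalings of the libraries. The deposited libraries had no common total, so each scaling changed the whole normalisation, and the part of the abundant genes in the moves was not tested. When each library was scaled so that the 12868 other genes summed to the same FPKM, the number of them past the threshold in limma went from 4496 to 4427 at B0d against E55d, from 2005 to 3090 at W30d against B0d, from 3615 to 3439 at A180d against W30d, from 1803 to 1907 at A2Y against A180d and from 2625 to 2648 in WB against A2Y. Of the calls on the deposited scale, 82.1, 68.1, 84.1, 87.0 and 75.7% were kept, and 0 calls made on both scales had opposite signs. The share of calls that were higher in the later group went from 64.0 to 47.1%, from 51.0 to 12.4%, from 45.3 to 57.2% and from 76.9 to 82.3% over the 4 developmental steps, and from 53.0 to 29.0% for WB against A2Y. The shift of the median change was -0.12, -0.26, 0.08, 0.03 and -0.11 on the log2 scale in the same order. When the total of all genes, abundant ones included, was set equal instead, as in a per-million scaling, the counts of other genes past the threshold were 2499, 924, 790, 37 and 845. The counts of 790 and 37 involve A180d, whose totals were 639700, 936279 and 1734525, and thus rest on the zeros there. ENSSSCG00000018700 was listed at 0 in the first 2 of these libraries and ENSSSCG00000020439 in the first. The zeros of these genes also enter the counts of 2499, 924 and 845, because all libraries shared the same estimate of the spread per gene. How far the zeros moved these 3 counts was not tested. When the median ratio to the geometric mean over libraries was used, which rests on the middle of all genes, the counts were 4800, 2415, 4269, 2186 and 2987. Of these calls, 49.2, 50.3, 48.5, 50.2 and 52.4% were higher in the second group. This scaling puts the median change near 0 by construction, so a near-even split is partly built in and is not a result about the genes.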

How the data were processed

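Spleen RNA of 18 animals in 6 groups was sequenced as strand-specific paired-end libraries. The authors mapped the reads with TopHat to a pig genome with replaced sex chromosomes, quantified genes as FPKM with StringTie, kept protein-coding genes with FPKM above 0.1 and deposited log2(FPKM+1), which was used as deposited. The submitters' processing notes name StringTie 1.3.3, Cufflinks 2.2.1, TopHat and the build Sscrofa10.2. Selection by poly(A) or depletion of ribosomal RNA is not given in the sources used here. Read counts were not used here. In the low values of lncRNAs at most 3.46% of genes shared 1 ratio between libraries, so values could not be turned back into reads, and the sequencing depth of the libraries is not reported here.

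Linear FPKM for sums was 2 to the power of the value, less 1. The comparison of groups used limma 3.58.1 (R 4.3.3) with all 18 libraries in 1 model, a mean-variance trend and Benjamini-Hochberg adjustment over all 12913 genes per comparison. Other values came from Python 3.11.15, numpy 2.4.6, pandas 2.3.3, scipy 1.17.1 and matplotlib 3.10.9, and the fits were tested on simulated data. Symbols were matched by identifier for 8215 genes. Genes named by identifier were the 10 highest, the largest called rise and fall of each comparison, the widest and narrowest range of group means, and those at the limit. Named by symbol were the members of lists of mitochondrially encoded, globin, translation, iron storage, cytoskeleton, antigen presentation, granulocyte and immunoglobulin genes. Members and lists were chosen with earlier results of these data known, and the lists of ribosomal protein and small RNA genes were added after values were seen. ENSSSCG00000007978 and the symbols in neither list were also named after their values were seen.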

Additional observations from a re-analysis of the deposited data

How the results depend on the processing

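With the total of all genes set equal between libraries, 6, 0, 11, 3 and 2 abundant genes passed the threshold at the 5 consecutive comparisons in order (11, 12, 18, 8 and 6 on the deposited scale), 21 over the 5 domestic stages (40 on the deposited scale), and 2499, 924, 790, 37 and 845 other genes. With the total of all but the highest gene set equal, 7 passed from E55d to B0d, 0 from B0d to W30d, 16 from A180d to A2Y and 11 from A2Y to WB. The other genes past the threshold numbered 3486, 2385, 5691 and 2972 there. With the total of the other genes set equal, 5 passed from B0d to W30d and 11 from A2Y to WB, with 3090 and 2648 other genes. The median ratio gave 13 from A180d to A2Y, with 2186 other genes, and no trend gave 19 from B0d to W30d. With only the 2 groups compared, 1 passed from B0d to W30d, 5 from A180d to A2Y and 3 from A2Y to WB, with 416 other genes from B0d to W30d and 1398 from A2Y to WB. The median change of the other genes was 0.00898 (other genes' total equal) and 0.00914 (median ratio) from E55d to B0d, -0.236 from B0d to W30d and 0.0822 from W30d to A180d with the other genes' total equal, and -0.0148 from A180d to A2Y under the median ratio. The median ratio puts the median change near 0 by construction. The causes of these moves were not tested.

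Leaving out 1 library gave 6 to 10, 3 to 17, 9 to 18, 2 to 13 and 3 to 9 abundant genes at the 5 comparisons, and 1104 to 2479, 1809 to 4312, 528 to 1553 and 1507 to 2265 other genes from B0d to W30d onward. The share of the highest gene differed by -3.21 to 2.94 points between A2Y and WB, the sign turning without A2Y-1 (exact p = 0.2). Its correlation with the other genes ranged from -0.404 to 0.316, turning without A180d-3, and also turned to 0.317 without the 2 farthest libraries and to 0.00391 with summed FPKM.

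The share of the abundant genes with a limit of 9 was 78.6% (E55d), 80.1% (B0d), 79.2% (W30d), 80.7% (A2Y) and 84.0% (WB). With a limit of 11 it was 68.6% at E55d, 71.5% at W30d, 71.6% at A2Y and 77.4% in WB. Without the highest gene it was 55.2% (E55d), 52.7% (B0d), 54.6% (W30d), 56.5% (A2Y) and 64.4% (WB), and without both genes with zeros 38.2, 37.6, 39.8, 47.5 and 47.2% in the same groups. With lncRNAs in the total it was 71.1% at E55d.

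Libraries with the same number did not pair: the median correlation of their deviations was 0.00332 over 30 pairs, and 4 of 15 libraries correlated best with their own number. With the replicate number as a block, over the 15 libraries outside E55d, 3 abundant genes passed from B0d to W30d and 4 from A180d to A2Y, against 6 and 5 without the block in these libraries. The block gave 1233 other genes from B0d to W30d and 943 from A180d to A2Y, where 1195 passed without it. No named call changed sign in any alternative.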

Other observations

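The remaining lists held few genes of the table. Of the globins HBB and HBM were matched, and HBM fell from W30d to A180d (-4.52 ± 1.34, limma, adjusted p = 0.0201), where W30d-2 was at 5.39 and the other W30d libraries at 11.67 and 11.35. HBB passed the threshold from B0d to W30d, a call that rests on its zeros. Of EEF2, RPL4 and RPLP1, the translation list, 1 rose from E55d to B0d, 1 rose from W30d to A180d, 1 fell from A180d to A2Y and 1 rose from A2Y to WB. Of the cytoskeleton genes ACTB, ACTG1, CFL1, PFN1 and TMSB10, 1 rose at each step except that from A180d to A2Y, where 1 fell. Of the granulocyte genes LYZ and S100A8, 1 rose from E55d to B0d and 1 from A2Y to WB. The lists of antigen presentation and immunoglobulin genes had 0 matches.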
